A study of Mus musculus with 12 samples.

Results

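Prostaglandins are short-lived lipid signals that cells make from arachidonic acid. A cyclooxygenase, COX-1 from Ptgs1 or COX-2 from Ptgs2, converts arachidonic acid to the unstable intermediate PGH2, and terminal enzymes turn PGH2 into a named prostaglandin: the PGE synthases of Ptges and Ptges2 make PGE2, and the prostacyclin synthase of Ptgis makes PGI2. PGE2 acts on neighbouring cells through receptors such as EP4, from Ptger4, which raises cyclic AMP, and the dehydrogenase of Hpgd starts its inactivation. In mesenchymal stromal cells (MSCs), PGE2 made through COX-2 is one of the best known ways in which these cells restrain T cells and macrophages.

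The 7 genes Ptgs1, Ptgs2, Ptges, Ptges2, Ptgis, Ptger4 and Hpgd were taken by symbol from a table of 55487 mouse genes, and all 7 were found in it. The RNA came from wild-type C57BL/6 MSCs, grown from femur marrow that per the paper's methods was taken from female mice 6 to 8 weeks old, and sequenced in 3 groups of 4 samples. Control MSCs were untreated. A1-treated MSCs received 50 μM A1 for 6 h, and A1 + OVA-treated MSCs received 50 μM A1 with 1 mg/ml ovalbumin (OVA), the egg white protein used as a model antigen, for 6 h. A1 is a synthetic molecule of cholic acid, a bile acid, joined to the nuclear localization signal of hnRNPA1. The labels' text for the A1 + OVA medium also names insulin, with no amount, so that a difference between both treatments cannot be told apart from one of medium if insulin was present. No group with OVA alone was analysed here, and how long the control samples were incubated is not given in the sources used here. Nothing in the labels says whether the 4 samples of a group came from separate mice or cultures, so that p-values measure the spread between these samples, which may be technical.

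Each sample held between 13702348 and 16881995 counts. Of the MSC and stromal markers, Cd44 had at least 2726 and Cxcl12 at least 19350 counts in every sample, while Thy1 had 0 to 17 counts and Nt5e 7 to 14. The 11 stromal markers together held 11880 to 12560 CPM (counts scaled to a common library size) in control, 8797 to 9409 in A1-treated and 9097 to 9699 in A1 + OVA-treated samples. Much of the lower sum lay in Cxcl12, a chemokine that holds blood stem cells in the marrow, at a mean of 3910 CPM in control, 1514 with A1 and 1692 with A1 + OVA. Of the 9 stromal markers tested, 5 were lower and 1, Cd44, was higher with each treatment, while Col1a1, a collagen gene, was not called at log2 fold changes of -0.04 and -0.02. Over all tested genes, 31.1% were called lower and 31.7% higher with A1, and 27.9% and 29.7% with A1 + OVA. The part of the marker differences in the results was not tested. The 9 haematopoietic markers together held 1.45 to 3.04 CPM in all samples, with Ptprc at 0 to 4 counts, and the 4 endothelial markers at most 0.916 CPM. In such bulk samples, fewer cells of a type and less RNA per cell cannot be told apart. The test was edgeR's quasi-likelihood test over the 11314 protein-coding genes with enough counts, with Benjamini-Hochberg adjustment and all 12 samples in one fit, and a gene was called at an adjusted p under 0.05. Ptgs1, Ptgs2, Ptges, Ptges2 and Ptger4 passed the filter on low counts. Hpgd and Ptgis did not, and their counts are given as counted.

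The promoters of both cyclooxygenase genes are shown first. The RNA of these neighbours in function changed by very different amounts, and a part of the promoters in that difference was not tested. Each line holds the 250 bases before the RefSeq start (GRCm38.p6), Ptgs2 at chr1:150099781-150100030 on the plus strand and Ptgs1 at chr2:36230176-36230425 on the plus strand, with matches of the motifs searched in capitals.
Ptgs2: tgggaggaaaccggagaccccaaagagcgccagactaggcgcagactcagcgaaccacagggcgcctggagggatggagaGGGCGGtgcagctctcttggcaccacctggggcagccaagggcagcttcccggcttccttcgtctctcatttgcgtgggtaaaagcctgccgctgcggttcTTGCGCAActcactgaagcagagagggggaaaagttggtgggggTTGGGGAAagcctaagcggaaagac
Ptgs1: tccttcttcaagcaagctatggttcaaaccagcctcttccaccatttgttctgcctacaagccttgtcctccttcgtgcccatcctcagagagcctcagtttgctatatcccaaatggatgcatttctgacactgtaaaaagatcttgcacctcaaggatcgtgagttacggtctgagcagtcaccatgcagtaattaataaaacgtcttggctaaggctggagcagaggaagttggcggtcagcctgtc

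The Ptgs2 window held GGGCGG, the GC box, at 170 bases before the start, and TTNNGNAA, a form of the site that C/EBP factors bind, at 69 and 25 bases before it. These motifs are common: 32.7% of the 32851 RefSeq promoters held GGGCGG in the same window and 36.8% held TTNNGNAA. The Ptgs1 window held none of the motifs searched on both strands, which were the TATA box TATAAA, the E-box CACGTG, the cyclic AMP response element TGACGTCA and its shorter part TGACGT, the AP-1 site TGAGTCA and its reverse complement TGACTCA (counted as the same site on the other strand), the GC box, the C/EBP form named above and, for NF-kappaB, GGGACTTTC. Its GC content was 48.0%, against 61.6% for Ptgs2. In the first 50 bases after the Ptgs2 start, a window added after the data were seen, the E-box CACGTG lay at base 17 and TGACGT, on the minus strand and overlapping it, at base 13. It is shown in capitals on chr1:150100038-150100061:
Ptgs2, after the start: ccactacgtCACGTGgagtccgct
CACGTG was present in 7.15% of all 300-base promoters and TGACGT in 7.51%. Among the other genes, Ptger4 held 4 GGGCGG, Ptges 2 GGGCGG and a TTNNGNAA, Ptges2 a CACGTG and a TTNNGNAA, and Hpgd a GGGCGG and a TTNNGNAA. These are letter matches, not measured binding, and Ptgis had no entry in the promoter table.

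Of the 5 tested genes, Ptgs2, which encodes the inducible cyclooxygenase COX-2, changed most. Ptgs2 (ENSMUSG00000032487, chromosome 1 from 150100031 to 150108227, plus strand) stood at 37.6, 48.4, 44.9 and 42.9 CPM in the 4 control samples. In A1-treated MSCs it stood at 126.6, 161.6, 151.5 and 162.0 CPM. In A1 + OVA-treated MSCs it stood at 170.7, 155.1, 190.3 and 208.4 CPM. Every treated sample thus lay above every control sample by a wide margin, while both treated groups overlapped each other. The mean rose from 43.4 ± 4.48 CPM (SD, n = 4) to 150.4 ± 16.6 CPM (SD, n = 4) with A1 and to 181.1 ± 23.2 CPM (SD, n = 4) with A1 + OVA. The log2 fold change was 1.79 with A1 (standard error 0.09, edgeR adjusted p = 2.06e-13) and 2.06 with A1 + OVA (standard error 0.09, edgeR adjusted p = 1.93e-14). In the order of log2 fold changes from the highest, Ptgs2 took rank 102 of 11314 genes with A1 and rank 69 with A1 + OVA. Both comparisons used the same 4 control samples.

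**Figure D1:**
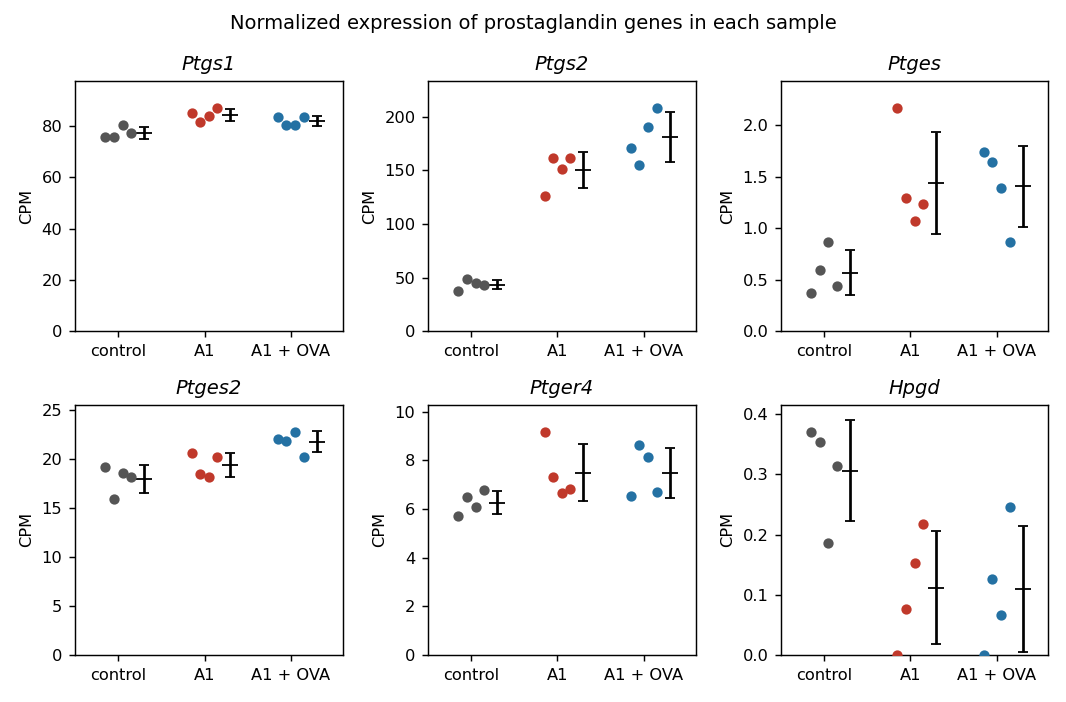
Normalized counts (CPM, y axis from 0) of 6 prostaglandin genes in each of 4 control, 4 A1-treated and 4 A1 + OVA-treated samples, with each sample as a point and the mean ± SD in black. All 8 treated samples lie above all 4 control samples for Ptgs2, whose control samples reach 48.4 CPM and whose treated samples start at 126.6 CPM, and Hpgd rests on at most 6 counts per sample.

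With OVA added to A1, Ptgs2 was higher by 0.27 on the log2 scale (95% interval 0.10 to 0.44, edgeR adjusted p = 0.0321), in a comparison in which 6.05% of all tested genes were called higher. The groups overlapped, since A1 + OVA replicate 2, at 155.1 CPM, lay below 2 of the 4 A1-treated samples. The call rested on single samples: the adjusted p from edgeR was 0.145 without A1 replicate 1, 0.0696 without A1 replicate 3, 0.0812 without A1 + OVA replicate 3 and 0.141 without A1 + OVA replicate 4, with log2 differences of 0.19 to 0.34 over all samples left out in turn. DESeq2 gave an adjusted p of 0.117 for it. Of the 5 tested genes Ptgs2 was the one called between both treatments, where 12.9% of all tested genes were called and 6.81% were called lower with OVA.

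Ptgs1, which encodes the constitutive cyclooxygenase COX-1, moved by a small and even step. Ptgs1 (ENSMUSG00000047250, chromosome 2 from 36230426 to 36252272, plus strand) stood at 75.6, 76.0, 80.4 and 77.4 CPM in control samples. The A1-treated samples stood at 85.0, 81.8, 83.8 and 87.1 CPM. The A1 + OVA-treated samples stood at 83.6, 80.3, 80.6 and 83.6 CPM. All A1-treated samples lay above all control samples, while 1 A1 + OVA-treated sample lay below control replicate 3. The log2 fold change was 0.13 with A1 (standard error 0.04, edgeR adjusted p = 0.00802), a rise of 1.09-fold that was called. With A1 + OVA it was 0.08 (95% interval 0.00 to 0.17, edgeR adjusted p = 0.0678), which was not called, although without control replicate 3 it was 0.10 with an adjusted p of 0.0458.

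The balance of the cyclooxygenase RNAs therefore turned. Per kilobase of summed exon length, which allows levels of different genes to be compared, Ptgs2 stood at 9.48 ± 0.979 CPM per kilobase (SD, n = 4) against 19.9 ± 0.565 for Ptgs1 (SD, n = 4) in control MSCs. In A1-treated MSCs the level of Ptgs2 was 32.8 ± 3.63 CPM per kilobase (SD, n = 4) and that of Ptgs1 21.7 ± 0.581 (SD, n = 4). In A1 + OVA-treated MSCs they were 39.6 ± 5.06 and 21.1 ± 0.475 CPM per kilobase (SD, n = 4 each). The ratio of Ptgs2 to Ptgs1 was between 0.422 and 0.540 in the control samples, between 1.26 and 1.68 in the A1-treated samples and between 1.64 and 2.11 in the A1 + OVA-treated samples. Ptgs2 thus held 32.2% ± 2.21 (SD, n = 4) of the length-scaled cyclooxygenase RNA in control, 60.04% ± 2.95 (SD, n = 4) with A1 and 65.0% ± 2.72 (SD, n = 4) with A1 + OVA. In all 4 control samples Ptgs1 was the more abundant of the pair, and in all 8 treated samples Ptgs2 was.

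**Figure D2:**
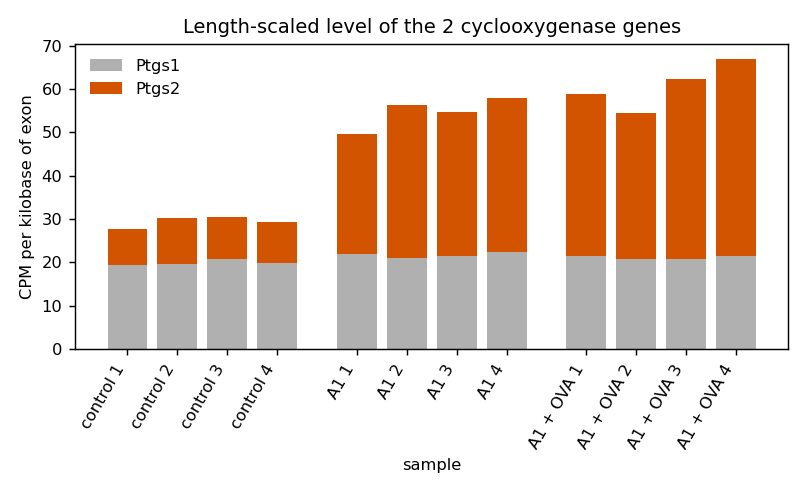
Level of Ptgs1 (grey) and Ptgs2 (orange) in CPM per kilobase of exon (y axis from 0), stacked for each of the 12 samples (x axis, group and replicate). The grey part hardly differs in height between groups, while the orange part grows from a mean of 9.48 in control to 32.8 with A1 and 39.6 with A1 + OVA.

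The annotation around Ptgs2 holds non-coding genes whose counts were looked up after the values of Ptgs2 were seen. Ptgs2os (ENSMUSG00000097028) lies on the opposite strand of chromosome 1 from 150074873 to 150099963, so that its start and that of Ptgs2 lie 68 bases apart and face away from each other, inside the promoter window shown above. Ptgs2os had 63, 62, 47 and 65 counts in control, 103, 100, 105 and 136 in A1-treated and 92, 127, 106 and 102 in A1 + OVA-treated samples, with no overlap between treated and control samples. Tested among 12521 genes of all biotypes, Ptgs2os was higher by 1.17 on the log2 scale with A1 (standard error 0.13, edgeR adjusted p = 1.54e-07) and by 0.93 with A1 + OVA (standard error 0.13, edgeR adjusted p = 4.81e-06). Ptgs2os2 (ENSMUSG00000097754, chromosome 1 from 150159043 to 150164948, minus strand), 50816 bases beyond the end of Ptgs2, had 115, 149, 146 and 143 counts in control samples. It had 192, 171, 204 and 204 in A1-treated and 207, 223, 207 and 228 in A1 + OVA-treated samples, again without overlap, with log2 fold changes of 0.75 and 0.73 (standard errors 0.09, edgeR adjusted p = 3.05e-07 and 3.95e-07). Of the 11314 protein-coding genes tested, 28% also lay wholly above control with A1 and 25.4% with A1 + OVA. Reads were counted by strand, so that Ptgs2 and Ptgs2os, which share no bases, were counted apart.

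The terminal PGE synthases differed in their levels and in their calls. Ptges, the inducible enzyme that works with COX-2, was scarce in all samples. Ptges (ENSMUSG00000050737, chromosome 2 from 30889471 to 30929863, minus strand) had 6, 10, 14 and 7 counts in control, 30, 17, 14 and 17 in A1-treated and 24, 26, 21 and 14 in A1 + OVA-treated samples. It passed the filter on low counts through the treated groups, where it is high: all 8 treated samples and 1 control sample lay above the filter's limit of 0.653 CPM. Scaled to CPM, the control samples reached 0.866 and the A1-treated samples started at 1.07, while A1 + OVA replicate 4, at 0.863 CPM, lay just under the highest control sample. Ptges rose by 1.34 on the log2 scale with A1 (standard error 0.32, edgeR adjusted p = 0.00106) and by 1.29 with A1 + OVA (standard error 0.32, edgeR adjusted p = 0.00146), and both calls held with each sample left out. Between both treatments the difference was -0.05 (95% interval -0.61 to 0.51, edgeR adjusted p = 0.925).

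Ptges2 encodes a second, constitutively made PGE synthase. Ptges2 (ENSMUSG00000026820, chromosome 2 from 32395896 to 32405772, plus strand) stood at 17.97 ± 1.45 CPM in control, 19.4 ± 1.23 in A1-treated and 21.8 ± 1.08 CPM in A1 + OVA-treated MSCs (SD, n = 4 each). The control samples ran from 15.9 to 19.25 CPM, the A1-treated samples from 18.2 to 20.6 and the A1 + OVA-treated samples from 20.3 to 22.8, so that the last group lay above control with no overlap. Ptges2 was called with A1 + OVA, at a log2 fold change of 0.28 (standard error 0.07, edgeR adjusted p = 0.00192), and not with A1, at 0.11 (95% interval -0.04 to 0.26, edgeR adjusted p = 0.191). Without control replicate 2 the value with A1 was 0.055 (adjusted p = 0.513), and with any other sample left out it was 0.075 to 0.146. The direct difference between both treatments was 0.17 (95% interval 0.02 to 0.31, edgeR adjusted p = 0.131), so that Ptges2 was not shown to differ between them. Per kilobase, Ptges stayed far below Ptges2 in every group, at 0.144 ± 0.0559 CPM per kilobase in control, 0.367 ± 0.126 with A1 and 0.358 ± 0.100 with A1 + OVA (SD, n = 4 each), against 3.55 ± 0.286 to 4.31 ± 0.214 for Ptges2. The third PGE synthase gene, Ptges3, whose product p23 is also an HSP90 co-chaperone, stood highest of the synthases, at 99.8 ± 4.69 CPM per kilobase in control, 119.8 ± 9.12 with A1 and 115.7 ± 9.71 with A1 + OVA (SD, n = 4 each).

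Ptgis RNA, for prostacyclin synthase, was not detectable above 3 counts in any sample at this depth. Ptgis (ENSMUSG00000017969, chromosome 2 from 167191805 to 167240604, minus strand) had 3, 0, 1 and 0 counts in control, 0, 1, 0 and 1 in A1-treated and 0 in each A1 + OVA-treated sample. A count of 0 in a sample allows up to 3 counts, counting error only. Every sample lay at or under that floor, and no fold is given.

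Hpgd RNA, for the dehydrogenase that starts PGE2 breakdown, was close to the limit of detection. Hpgd (ENSMUSG00000031613, chromosome 8 from 56294585 to 56321043, plus strand) had 6, 6, 3 and 5 counts in control, 0, 1, 2 and 3 in A1-treated and 0, 2, 1 and 4 in A1 + OVA-treated samples. The treated samples were mostly lower, and both treated groups overlapped control. Over the 4 samples of a group these are 20, 6 and 7 counts, and the ratio of rates to control was 0.364 with A1 (95% interval 0.120 to 0.939) and 0.374 with A1 + OVA (95% interval 0.134 to 0.921), where the intervals cover counting error only. Tested without a filter on low counts among 16071 genes, Hpgd had log2 fold changes of -1.40 and -1.36 and edgeR adjusted p-values of 0.084 and 0.0834, so that it was not called. Set against Ptgs2, summed counts per kilobase gave 52.1 times as much Ptgs2 as Hpgd RNA in control, 495 times as much with A1 and 581.1 times as much with A1 + OVA, values whose size depends on those few Hpgd counts.

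Ptger4 encodes the EP4 receptor, through which PGE2 raises cyclic AMP. Ptger4 (ENSMUSG00000039942, chromosome 15 from 5206661 to 5244187, minus strand) stood at 5.69, 6.50, 6.06 and 6.77 CPM in control samples. It stood at 9.18, 7.33, 6.64 and 6.83 CPM in A1-treated and at 6.52, 8.61, 8.12 and 6.72 CPM in A1 + OVA-treated samples. One or more samples of each treated group lay within the range of control. The log2 fold change was 0.26 with both treatments (standard errors 0.12, edgeR adjusted p = 0.0664 with A1 and 0.0646 with A1 + OVA), which was not called. It passed the threshold in the A1 comparison without A1 replicate 3 (0.31, adjusted p = 0.0473) and in the A1 + OVA comparison without A1 + OVA replicate 1 (0.32, adjusted p = 0.0328) or A1 + OVA replicate 4 (0.32, adjusted p = 0.0408). In the other direction, the value was 0.14 (adjusted p = 0.331) without A1 replicate 1, the highest of the 12 samples, and 0.19 (adjusted p = 0.219) in the A1 + OVA comparison without A1 + OVA replicate 2. Exons of Ptger4 share bases with a gene and a pseudogene on the opposite strand, which were counted apart by strand. The difference between both treatments was 0.00, with a 95% interval of -0.25 to 0.25.

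With A1, 3 of the 5 tested genes were called, all higher, where 62.7% of all tested genes were called, 31.7% higher and 31.1% lower. With A1 + OVA, 3 of the 5 were called higher, where 57.6% of all tested genes were called, 29.7% higher and 27.9% lower. So large a part of the transcriptome was called that a call by itself sets no gene apart. With a size of 0.5 or more on the log2 scale added to the rule, 9.41% of genes were called higher with A1 and 8.92% with A1 + OVA, and Ptgs2 and Ptges met that rule in both comparisons. The median log2 fold change of the 5 genes was 0.26 with A1 and 0.28 with A1 + OVA, beside medians of -0.002 and 0.004 over all tested genes. Hpgd and Ptgis are not in these counts, since they were not tested, and Ptges entered the test through the treated groups, so that the counts and medians are descriptions. Non-overlap of the treated with the control samples, on the higher side, was found for Ptgs1, Ptgs2 and Ptges with A1, where 28% of all tested genes had it, and for Ptgs2 and Ptges2 with A1 + OVA, where 25.4% had it.

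**Figure D3:**
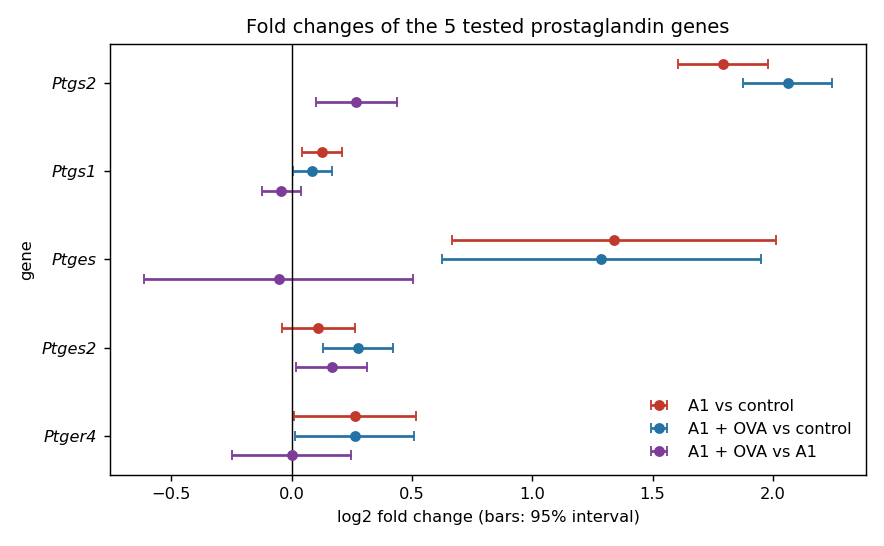
Log2 fold change (x axis) of the 5 tested prostaglandin genes (y axis) in 3 comparisons, with edgeR's estimate as a point and its 95% interval as a bar. Ptgs2 stands at 1.79 and 2.06 with short bars, Ptges at 1.34 and 1.29 with long ones, and the other genes at 0.28 or below.

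The 3 genes whose log2 CPM followed that of Ptgs2 most closely over the 12 samples were Inhba (Pearson r = 0.994), the gene of the activin A subunit, Thbs1 (r = 0.994), which encodes thrombospondin-1, and Ankrd1 (r = 0.993). Their log2 fold changes were 1.5, 1.13 and 1.56 with A1 and 1.73, 1.27 and 1.68 with A1 + OVA. The genes most like Ptgs1 were Ska3, Gtf3c2 and Prep, with r from 0.921 to 0.933, and those most like Ptges2 were Fscn1, Gsn and Tmcc2, with r from 0.912 to 0.922. Sys1, Rab11fip5 and Zfp850 came closest to Ptges, with r from 0.915 to 0.928, and Wtip, Fam83h and B4galt3 to Ptger4, with r from 0.853 to 0.877. All of these r values are descriptions over 12 samples that fall into 3 groups, so that they also carry the differences between groups.

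The Ptgs2 message is known to be short-lived through AU-rich repeats in its 3' UTR, where proteins that hasten or delay decay bind. The word ATTTA, the core of such repeats, was counted in the annotated 3' UTRs (GENCODE M21, GRCm38) after the data had been seen. Ptgs2 held 14 in 2445 bases, 5.73 per kilobase, where the median of 11270 tested genes with a 3' UTR was 2 (1.38 per kilobase), 2.98% of genes held as many and 4.34% held them as densely. Ptger4 held 5, Hpgd 4 and Ptges2 4, while the 3' UTRs of Ptgs1, Ptges and Ptgis held 0. The densest 30 bases of the Ptgs2 3' UTR, its bases 12 to 41, show 4 of these words in capitals, of which 3 overlap:
Ptgs2, 3' UTR: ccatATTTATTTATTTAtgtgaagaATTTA

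Of the RNA-binding regulators of the Ptgs2 message, all 9 were tested, and 3 were higher and 3 lower with each treatment, at a median log2 fold change of 0.08 with A1 and 0.05 with A1 + OVA. Over all tested genes, 31.7% were called higher and 31.1% lower with A1, and 29.7% and 27.9% with A1 + OVA. These shares belong beside the counts of this list and of each list below. Zfp36l1, which binds such AU-rich words and hastens decay, fell from 96.9 ± 7.23 CPM (SD, n = 4) in control to 35.0 ± 2.48 with A1 and 41.4 ± 1.65 with A1 + OVA (SD, n = 4 each). Its log2 fold changes were -1.47 (standard error 0.06, edgeR adjusted p = 4.85e-15) and -1.23 (standard error 0.06, edgeR adjusted p = 6.07e-14). Zfp36l2, of the same family and with the same role, was more abundant and rose from 296.6 ± 6.81 CPM to 373.8 ± 2.05 with A1 and 380.7 ± 15.4 with A1 + OVA (SD, n = 4 each), by 0.33 and 0.36 on the log2 scale (standard errors 0.04, edgeR adjusted p = 6.19e-08 and 2.11e-08). The third gene of that family, Zfp36, fell by 0.46 and 0.26, and Elavl1, whose product HuR delays decay of such messages, rose by 0.31 and 0.30. Tia1, which holds back translation of the message, fell by 0.60 and 0.43 on the log2 scale. The decay of the Ptgs2 message was not measured.

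Arachidonic acid reaches the cyclooxygenases through phospholipases, and acyl-CoA synthetases and lysophospholipid acyltransferases put it back into membranes. Of 20 genes of this supply and recycling, 12 were tested, and 5 were higher and 3 lower with each treatment, with a median log2 fold change of 0.12 with A1 and 0.07 with A1 + OVA. Pla2g4a, the cytosolic phospholipase that feeds prostaglandin synthesis, rose by 0.15 and 0.20 (standard errors 0.04, edgeR adjusted p = 0.00496 and 0.000533). Anxa1, which encodes annexin A1, an inhibitor of phospholipase activity, rose by 0.92 and 0.90, from a mean of 1056 to 2002 and 1967 CPM. Dagla, a diacylglycerol lipase, rose by 0.74 and 0.62, and Lpcat2 by 0.32 and 0.53. Acsl3, an acyl-CoA synthetase, fell by 1.10 and 1.16 on the log2 scale (standard errors 0.05, edgeR adjusted p = 2.81e-14 and 1.21e-14). The other genes called lower were Lpcat3, at -0.29 and -0.39, and Acsl4, at -0.19 and -0.11. Lpcat3 stood at a mean of 163.2 CPM in control, against 15.2 CPM for Lpcat2.

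Of the other genes of prostanoid synthesis, 5 of the 9 found in the data were tested, and 3 were higher and 1 lower with each treatment, at a median of 0.15 and 0.12. Tbxas1, the thromboxane synthase, had 0 to 4 counts in control samples, 17 to 21 in A1-treated and 8 to 13 in A1 + OVA-treated samples, without overlap between any pair of groups. It rose by 3.08 with A1 (standard error 0.39, edgeR adjusted p = 3.78e-07) and by 2.11 with A1 + OVA (standard error 0.45, edgeR adjusted p = 0.000273). No control sample exceeded 0.248 CPM, under the filter's limit of 0.653 CPM. Tbxas1 thus entered the test through the treated groups, where it is high. Over all tested genes, 28% lay wholly above control with A1 and 25.4% with A1 + OVA. Between both treatments, 1084 of the 11314 tested genes lay wholly lower with OVA added and 968 wholly higher. With OVA added, Tbxas1 was lower by 0.97 on the log2 scale (edgeR adjusted p = 0.0235), a call that was lost with DESeq2 (adjusted p = 0.0618) and, in edgeR, without A1 replicate 1 (0.0666), A1 replicate 3 (0.0501) or A1 + OVA replicate 4 (0.0784). Ptges3 rose by 0.26 and 0.21, and Cbr1, a carbonyl reductase that acts on PGE2, fell by 0.51 and 0.31. The PGD synthases Ptgds and Hpgds had at most 1 count in every sample.

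Of the other genes of breakdown and transport, 7 of the 9 found in the data were tested, and 2 were higher and 4 lower with each treatment, at a median of -0.27 and -0.20. Over all tested genes, 31.7% were higher and 31.1% lower with A1, and 29.7% and 27.9% with A1 + OVA. Slco2a1, which encodes the transporter that takes prostaglandins up for breakdown, rose by 0.61 with A1 and by 0.51 with A1 + OVA (standard errors 0.05, edgeR adjusted p = 1.93e-10 and 3.61e-09), and Abcc4, an exporter of prostaglandins, rose by 0.15 and 0.12. The prostaglandin reductases Ptgr1 and Ptgr2, which act after Hpgd, fell by 0.33 and 0.46 with A1 and by 0.27 and 0.39 with A1 + OVA.

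Of 9 genes listed as other receptors or their regulators, 4 were tested and 2, Ptgfr and Ptgfrn, were lower with each treatment. Ptgfrn encodes a negative regulator of the PGF2 alpha receptor, not a receptor itself, and changed by -0.17 and -0.21. Ptgfr, the receptor of PGF2 alpha, fell from 30.03 ± 0.515 CPM (SD, n = 4) in control to 7.64 ± 0.601 with A1 and 6.94 ± 1.15 with A1 + OVA (SD, n = 4 each). On the log2 scale Ptgfr changed by -1.97 (standard error 0.09, edgeR adjusted p = 1.96e-14) and by -2.11 (standard error 0.09, edgeR adjusted p = 6.97e-15). Per kilobase, Ptgfr stood at 4.43 ± 0.0759 CPM per kilobase in control, above Ptger4 at 0.941 ± 0.0717 (SD, n = 4 each). With A1 both receptors stood at 1.13 CPM per kilobase (SD 0.089 for Ptgfr and 0.175 for Ptger4, n = 4 each). Among the PGE2 receptors, Ptger1 had 46 to 73 counts and was not called with either treatment, at 0.11 (edgeR adjusted p = 0.478) and -0.18 (edgeR adjusted p = 0.263), Ptger3 had at most 1 count and Ptger2 had 0 in all samples. The receptor of prostacyclin, Ptgir, stood at 1.64 ± 0.431 CPM in control, 1.51 ± 0.111 with A1 and 1.90 ± 0.249 with A1 + OVA (SD, n = 4 each).

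EP4 acts through Gs, adenylate cyclases and protein kinase A, and phosphodiesterases end the cyclic AMP signal. Of 24 genes of this relay, 18 were tested, and 5 were higher and 8 lower with each treatment, at a median of -0.04 and -0.14. Pde4b, a phosphodiesterase, fell from 16.1 ± 0.561 CPM in control to 6.47 ± 0.657 with A1 and 3.83 ± 0.730 with A1 + OVA (SD, n = 4 each). Its log2 fold changes were -1.32 and -2.08, and it was lower with A1 + OVA than with A1 by 0.76 on the log2 scale (standard error 0.13, edgeR adjusted p = 0.000518). Pde4a and Pde4d, of the same family, rose by 0.40 and 0.35 with A1 and by 0.29 and 0.37 with A1 + OVA. The adenylate cyclase Adcy9 fell by 0.83 and 0.65, the regulatory kinase subunit Prkar2a rose by 0.79 and 0.69, and Arrb1, which encodes an arrestin, fell by 0.57 and 0.49. Prkar1b, another regulatory subunit at under 1 CPM on average, stood 0.81 higher with A1 + OVA (edgeR adjusted p = 0.0314), a call lost with DESeq2 (adjusted p = 0.0865) and, in edgeR, without control replicate 2 (0.105), control replicate 4 (0.0683) or A1 + OVA replicate 2 (0.138). All its A1 + OVA-treated samples lay above the filter's limit of 0.653 CPM, at 0.725 CPM or more. Its control samples ran from 0.30 to 0.68 CPM. Prkar1b thus entered the test through the A1 + OVA group, where it is high.

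The neighbouring lipoxygenase branch, which turns arachidonic acid into leukotrienes, was mostly not detected: 2 of its 13 genes were tested, and Alox5, its first enzyme, had 0 counts in all samples. Lta4h, the hydrolase that makes leukotriene B4, stood at a mean of 127 CPM in control and was not called, with log2 fold changes of -0.03 with A1 and 0.02 with A1 + OVA (edgeR adjusted p = 0.504 and 0.603). Ephx2, an epoxide hydrolase, was lower with A1 + OVA at -0.52 (edgeR adjusted p = 0.0337), a call lost with DESeq2 (adjusted p = 0.0858), without the filter on low counts (0.0522) and without control replicate 1 (0.0698), control replicate 4 (0.0682), A1 + OVA replicate 3 (0.146) or A1 + OVA replicate 4 (0.0965).

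PGE2 is one of several factors by which MSCs act on immune cells, and 11 of 18 others were tested, of which 4 were higher and 5 lower with each treatment. Lif, a cytokine of the IL-6 family, rose by 1.64 and 2.19 (standard errors 0.36 and 0.32, edgeR adjusted p = 0.000389 and 4.24e-06), from 4 to 10 counts in control samples to 11 to 27 with A1 and 23 to 33 with A1 + OVA. No control sample of Lif exceeded 0.619 CPM, under the filter's limit of 0.653 CPM. Lif thus entered the test through the treated groups, where it is high. Tgfb1, which encodes the cytokine TGF-beta 1, rose by 0.75 and 0.63, and Hmox1, the heme oxygenase, by 0.45 and 0.71, with a difference of 0.26 between both treatments (edgeR adjusted p = 0.000344). Hgf, the hepatocyte growth factor, fell by 0.76 and 0.75, and Tnfaip6, an anti-inflammatory protein of MSCs, by 1.19 and 1.42 on 28 or fewer counts. Tnfaip6 passed the filter through the control group, where it is high, at 0.768 CPM or more in each control sample. Il6 fell by 1.38 with A1 and by 0.66 with A1 + OVA (edgeR adjusted p = 0.000144 and 0.0192), the latter lost with DESeq2 (adjusted p = 0.0856) and, in edgeR, without control replicate 4 (0.0828) or A1 + OVA replicate 2 (0.0572). Il6 had few counts, 18 to 25 in control, 4 to 9 in A1-treated and 11 to 14 in A1 + OVA-treated samples. The paper reports increased IL-6 secretion with A1 by Luminex, a measure of secreted protein and not of RNA. The median log2 fold change of this list was -0.08 with A1 and 0.07 with A1 + OVA, beside -0.002 and 0.004 over all tested genes, of which 31.7% were called higher and 31.1% lower with A1 and 29.7% and 27.9% with A1 + OVA.

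**Figure D4:**
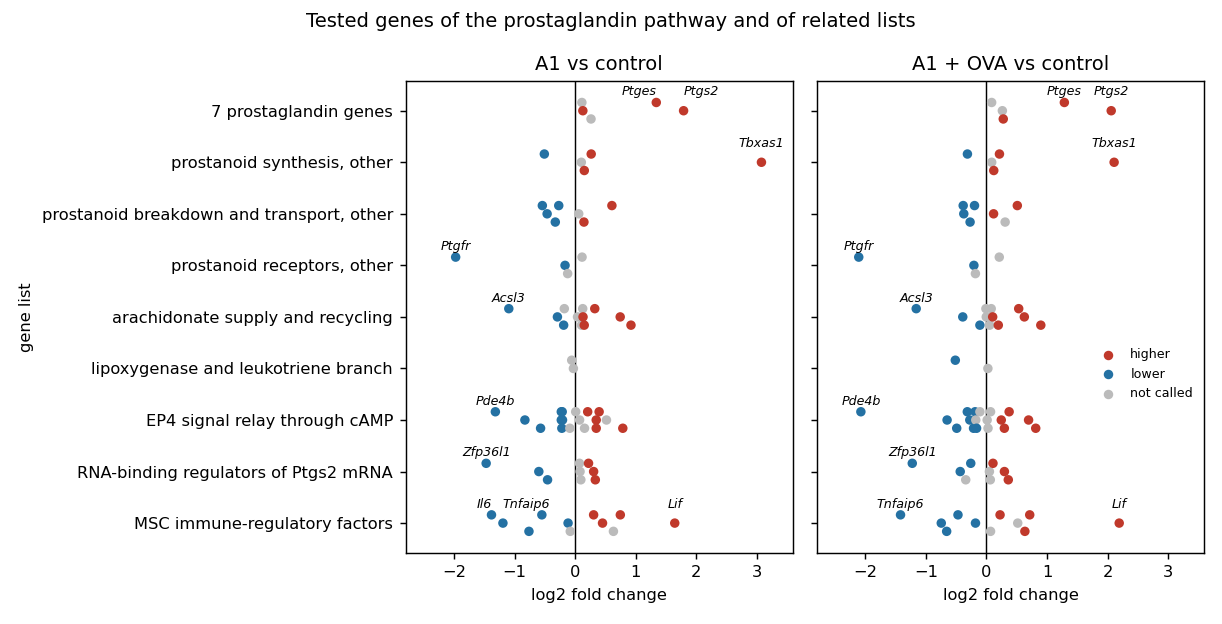
Log2 fold change (x axis) of each tested gene in the 7 prostaglandin genes and 8 related lists (y axis), with A1 on the left and A1 + OVA on the right. Each point is 1 gene, red where called higher, blue where called lower and grey where not called, and genes beyond 1 on either side are named, among them Ptgs2 at 1.79 and 2.06 and Ptgfr at -1.97 and -2.11.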

How the data were processed

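RNA of 12 mouse MSC samples was analysed, 4 untreated, 4 treated with A1 and 4 with A1 + OVA, grouped by their titles, which the columns repeat. The authors selected polyA RNA, built stranded libraries, aligned reads to GRCm38 with STAR (2.7 per the submitters' processing notes, with featureCounts 2.0 and bcl2fastq 2.20) and deposited raw counts per Ensembl gene. Symbols, biotypes and exon lengths came from GENCODE M21, which held 99.53% of the identifiers. Protein-coding genes that passed filterByExpr were scaled by TMM and compared by the quasi-likelihood F-test of edgeR (version 4.0.16 under R 4.3.3), with 3 groups, no covariate and Benjamini-Hochberg adjustment over 11314 genes. CPM are counts over normalized library size, and log2 CPM used a prior count of 2. DESeq2 (1.42.0), the study's own tool, was an alternative, as were other scalings, filters, a replicate block and each sample left out in turn. Intervals of summed counts cover counting error at 95%.

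All 7 genes were named, and of each related list the called genes that moved by 0.5 or more on the log2 scale in either comparison with control, at most 6 a list, of which 1 is not reported here. For each tested gene of the 7, the 3 genes most like it by Pearson r were taken among those whose log2 CPM averaged 1 or more. Pla2g4a, Lpcat3, Acsl4, Ptges3, Abcc4, Ptgr1, Ptgr2, Ptgfrn, Pde4a, Pde4d, Lta4h, Zfp36, Zfp36l2, Elavl1, the markers and the undetected genes were named after their values were seen, as were Ptgs2os and Ptgs2os2. The genes and lists were chosen with earlier results of these data known.

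On simulated counts of A1 against control for 11245 genes, edgeR recovered 86% of genes changed by 0.5 and 97% of those changed by 1 on the log2 scale. Only 100 genes were changed at each size, whereas 62.7% of tested genes were called with A1 in the data. The recovered shares thus need not hold for the data. Counts of replicates differed by 1.92 to 6.87 times the counting variance, so that no pair was a copy. With 4 samples per group, their number limits the precision.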

Additional observations from a re-analysis of the deposited data

Results flagged for a closer look

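In 87 groups of 4 samples examined for a sample apart from the rest, 2 genes had one, where chance gives about 1 in 20. The adenylate cyclase gene Adcy9 stood at 10.7 CPM in control replicate 4, against 8.33 to 8.48 CPM in the other control samples (Dixon's ratio 0.939). Prkar1b stood at 1.20 CPM in A1 + OVA replicate 2, against 0.725 to 0.792 CPM in the others (Dixon's ratio 0.859). The genes Ptgs1, Ptgs2, Ptges, Ptges2, Ptger4 and Hpgd had no such sample in any group.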

How the results depend on the processing

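With a log2 fold change of at least 0.5 required, 2372 genes were called in A1-treated and 2004 in A1 + OVA-treated MSCs against control, and 136 between the treatments, and Ptgs1 with A1 (0.127), Ptges2 with A1 + OVA (0.277) and Ptgs2 between both treatments (0.269) were no longer called. DESeq2 lost the last call too (0.263, adjusted p = 0.117). With single samples left out, the log2 fold change of Ptgs2 ran from 1.73 to 1.86 with A1, from 1.99 to 2.13 with A1 + OVA and from 0.19 to 0.337 between both, that of Ptger4 from 0.142 to 0.308 with A1 and from 0.188 to 0.319 with A1 + OVA, and that of Ptgs1 with A1 + OVA from 0.075 to 0.104. The calls of Ptgs2 and Ptges against control held under every alternative that tested them. Ptges was not tested with at least 10 counts required in every sample, and in the main fit it entered the test through the treated groups, where it is high. Upper-quartile scaling moved the median of all genes most, to -0.031 with A1. Genes at a few counts per sample, such as Hpgd, Ptgis and Ptges, are limited by depth.

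With the replicate number as a block, 7134, 6580 and 1488 genes were called, and no call of the 5 tested genes changed. Over 12 pairs of the same number, the deviations from the group means correlated at 0.021 on average, and over 36 pairs of different numbers at -0.007, so that the numbers were not shown to pair the samples.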
